A study of Mus musculus with 4 samples.

Results

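The open chromatin of the mouse extensor digitorum longus (EDL) was compared with that of the quadriceps (Quad). Both are limb muscles used mostly for short, forceful work, and the comparison asked how far their accessible regions differ. The members were the 20000 peaks with the highest Peak Score in each muscle, 20000 of 30136 in EDL and 20000 of 40337 in Quad, which is 40000 of the 120839 peaks of the 4 muscles profiled. Peaks were counted per gene by the authors' nearest gene. Where peaks of both lists overlapped by at least 1 bp, their percentiles of Peak Score within each list of 20000 were compared. A gene was called when its peak numbers differed by 2 or more, and a shared peak when its percentiles differed by 20 points or more.

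Each muscle was represented by 1 library, labelled as pooled, from wild-type C57BL/6 mice without a further treatment in the labels. How many animals or libraries each pooled sample combines is not known, and each is called 1 library here. The study's methods describe young, sedentary male mice, and the labels give no age. Nuclei came from whole frozen muscle, so each list mixes every cell type of the tissue, and fewer cells of a type cannot be told apart from less accessible chromatin per cell. With 1 library per muscle there is no spread between replicates and no p-value. Every difference below describes these libraries, and the intervals cover counting error only.

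Promoters and enhancers lose nucleosomes when transcription factors bind them, and ATAC-seq (assay for transposase-accessible chromatin) reads such sites because the Tn5 transposase cuts open DNA. In limb muscle the fast fibres use a fast myosin, a fast calcium pump and glycolysis, whereas slow fibres use slow isoforms of the same proteins and many mitochondria. Myogenic factors, MEF2, TEAD and nuclear receptors bind near many of these genes.

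Several of the regions that set the muscles apart are shown first. All are from GRCm38.p6 in RefSeq, the assembly behind the mm10 coordinates of the peak lists, plus strand, over the peak of the muscle with the higher score. Capitals mark matches, on either strand, to the 14 motifs searched. Those seen here are the E-box of myogenic factors (CAGCTG), NFAT (TGGAAA), a nuclear receptor monomer site (AAGGTCA), a glucocorticoid receptor core site (AGAACA), TEAD (GGAATG), KLF and SP (GGGCGG) and RUNX (TGTGGT). The first 3 sequences are shared regions with some of the largest percentile differences towards EDL, in intron 1 of Pitpnm3 (chr11:72129996-72130204), upstream of Lzts1 (chr8:69152024-69152232) and in intron 1 of Cped1 (chr6:22010809-22011017). In Lzts1 a TEAD match and a reversed nuclear receptor monomer site share bases in 1 run of capitals. The last is the strong EDL peak upstream of Mef2d (chr3:88138351-88138559) that had no Quad counterpart.
Pitpnm3: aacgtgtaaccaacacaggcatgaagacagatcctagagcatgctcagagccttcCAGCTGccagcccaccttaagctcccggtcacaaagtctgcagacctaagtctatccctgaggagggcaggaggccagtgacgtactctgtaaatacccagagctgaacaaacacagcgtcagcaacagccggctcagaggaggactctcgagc
Lzts1: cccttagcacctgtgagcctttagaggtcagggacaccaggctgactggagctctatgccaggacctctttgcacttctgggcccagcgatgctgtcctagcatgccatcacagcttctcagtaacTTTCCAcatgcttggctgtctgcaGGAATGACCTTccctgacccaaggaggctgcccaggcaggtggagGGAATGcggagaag
Cped1: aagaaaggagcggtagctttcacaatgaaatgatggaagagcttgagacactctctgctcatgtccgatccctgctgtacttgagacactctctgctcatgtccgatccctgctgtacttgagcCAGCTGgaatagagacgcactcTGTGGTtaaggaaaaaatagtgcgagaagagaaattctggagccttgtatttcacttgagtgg
Mef2d: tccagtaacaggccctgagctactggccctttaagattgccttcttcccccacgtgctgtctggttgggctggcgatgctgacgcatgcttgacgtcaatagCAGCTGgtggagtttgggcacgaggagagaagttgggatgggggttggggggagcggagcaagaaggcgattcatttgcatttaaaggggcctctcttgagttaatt

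The next 2 were shared regions higher in Quad. They lie in intron 3 of Eya4 (chr10:23178722-23178910) and upstream of the predicted gene Gm20755 (chr3:37838981-37839169).
Eya4: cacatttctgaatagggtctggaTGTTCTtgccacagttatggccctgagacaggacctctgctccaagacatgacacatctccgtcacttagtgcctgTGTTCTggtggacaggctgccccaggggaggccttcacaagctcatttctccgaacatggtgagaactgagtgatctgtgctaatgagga
Gm20755: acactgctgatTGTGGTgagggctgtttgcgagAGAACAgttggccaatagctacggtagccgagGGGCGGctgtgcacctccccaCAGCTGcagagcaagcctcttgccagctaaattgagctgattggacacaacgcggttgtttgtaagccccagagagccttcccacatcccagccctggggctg

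Both lists were drawn at similar numbers of tags. From the steps of the scores, 1 tag was worth 0.0962 in EDL and 0.128 in Quad, so the peak at rank 20000 held 58 tags in EDL and 52 in Quad, and the median peak of the 20000 held 94 and 79. Most regions were common to both. The lists shared 15281 pairs of peaks, and a further 2615 EDL peaks overlapped a Quad peak ranked below 20000, against 1398 in the other direction. In each list of 20000, 4719 peaks were thus unpaired. No overlap with the whole other list was found for 2104 EDL peaks (10.5%, 95% Wilson interval 10.1% to 10.95%) and for 3321 Quad peaks (16.6%, 16.1% to 17.1%). The whole EDL list holds 30136 peaks and the whole Quad list 40337, so a Quad peak had fewer chances of a match, and the gap between these shares does not show more private regions in Quad. These unmatched peaks were mostly weak, with median percentiles of 28.5 in EDL and 27.3 in Quad. Of them, 919 in EDL and 1874 in Quad had no peak of the other muscle within 1 kb.

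Part of the unmatched peaks were open in another muscle. The whole soleus list held 42.9% (40.8% to 45.0%) of those of EDL and 33.5% (31.9% to 35.1%) of those of Quad, and the diaphragm list 31.7% and 26.1%. Promoters made up 24.7% of the unmatched EDL peaks and 28.2% of those of Quad, against 41.2% and 43.1% of the lists of 20000.

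At shared regions 1869 pairs stood at least 20 points higher in EDL and 1540 at least 20 points higher in Quad, which is 12.2% and 10.1% of the pairs. The counting intervals of the percentiles lay apart in only 308 and 250 of them. By percentile within 20000 peaks, promoters and distal sites had medians of opposite sign. Promoter pairs had a median difference of -0.55 points (EDL minus Quad, n = 7286), with 446 calls for EDL and 671 for Quad. Intron pairs had a median of 3.19 points (n = 3974, 753 against 426 calls), and intergenic pairs 2.26 points (n = 3141, 567 against 313 calls). This contrast rests on the equal list lengths. With pairs formed anew between the whole lists the promoter median was -4.09 points. At the 7841 non-promoter pairs of the lists of 20000, with percentiles taken in the whole lists, the median was -5.99. Both were thus higher in Quad, but the 2 values rest on different sets of pairs and are not compared with each other. Percentiles also scattered more at distal sites, where Spearman's rho across pairs was 0.674 in introns and 0.704 between genes, against 0.893 at promoters. Pairs share libraries and are not independent. Calls also followed rank. At a mean percentile of 20 to 40, 24.3% of pairs were called for EDL and 19.5% for Quad, against 0.08% and 0.03% at 80 to 100. Promoter pairs had median percentiles of 72.5 in EDL and 74.6 in Quad, and intron pairs 47.5 and 43.3. Rank and position were thus not separated in these calls and in this scatter.

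**Figure D1:**
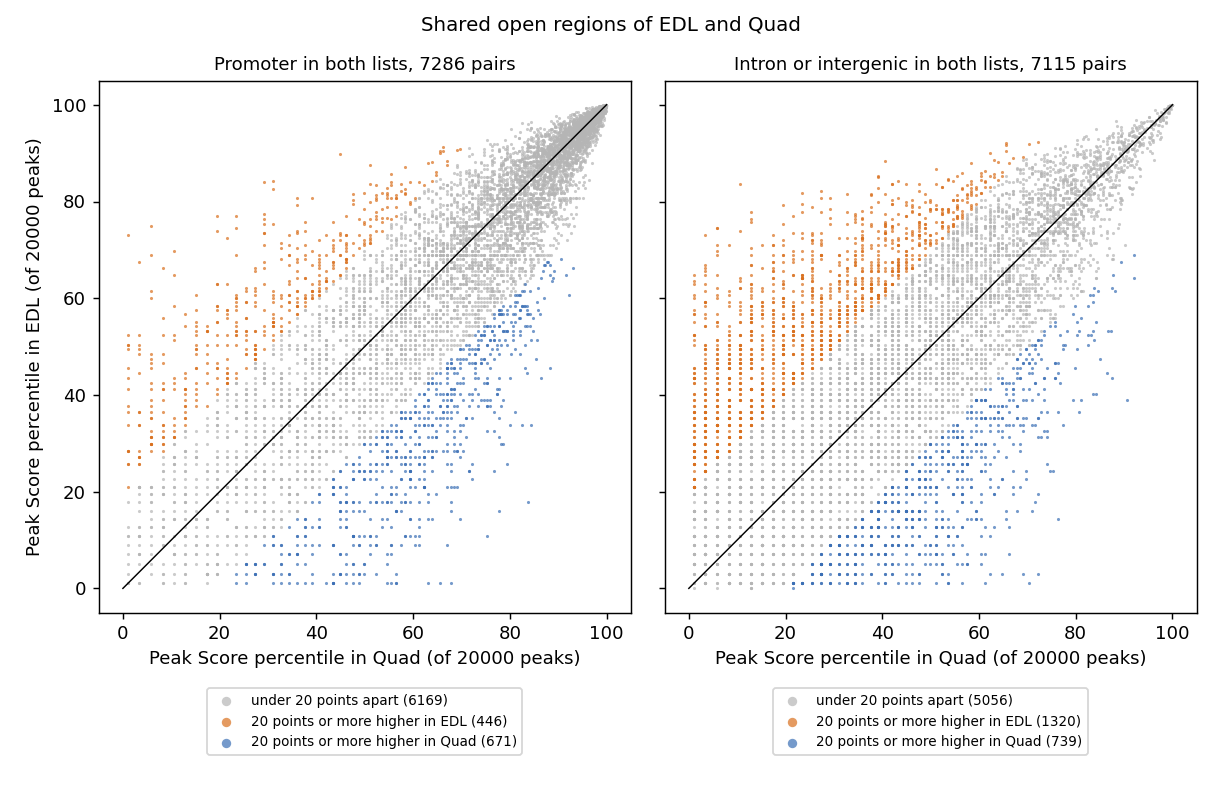
Each point is 1 shared region, with its Peak Score percentile among 20000 peaks in Quad (x axis) and in EDL (y axis), promoter pairs on the left (n = 7286) and intron or intergenic pairs on the right (3974 and 3141), and the line marks equality. Distal pairs spread further above the line, with 1320 called for EDL and 739 for Quad, whereas promoter pairs gather at the upper right.

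The difference also moved with base composition. Pairs were put into 5 groups of increasing GC content. Promoter pairs in the lowest group (median 54.5%) stood 1.78 points higher in EDL at the median, while those in the highest group (median 74%) had a median of -7.73 points. Intron and intergenic pairs went from 5.60 points in the lowest group (46.5% GC) to -1.39 in the highest (63%). Promoters called for Quad had a median GC content of 71%, against 60.5% for those called for EDL and 64.5% for those not called. The part that GC content has in any gene's difference was not tested.

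**Figure D2:**
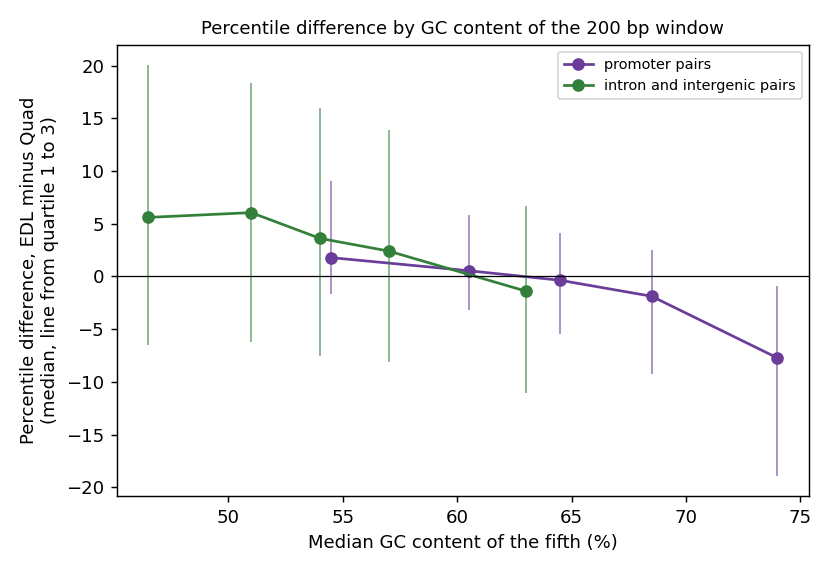
The median percentile difference, EDL minus Quad in points, is drawn for shared pairs in 5 groups by GC content of the 200-bp window at the peak centre, for promoter pairs and for intron and intergenic pairs, with vertical lines from quartile 1 to quartile 3. Promoter medians fall from 1.78 to -7.73, and those of distal pairs from 5.60 to -1.39.

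Named regions give the size of the extremes. In intron 1 of Pitpnm3, a membrane-associated phosphatidylinositol transfer protein, the shared peak held 155 tags in EDL and 56 in Quad. Its percentile was 83.7 (counting interval 75.6 to 89.3) in EDL and 10.6 (0 to 41.3) in Quad, a gap of 73.1 points. The region 11175 bp upstream of Lzts1 held 126 tags in EDL and 53 in Quad, at percentiles 73.0 and 3.33. Intron 3 of Apopt1, a mitochondrial protein, and intron 1 of Cped1 each held 129 and 54 tags. The peak 35607 bp downstream of the start of Tmem229b held 137 and 57. All of these intervals lay apart, with EDL higher. Beside the noncoding gene 2900040C04Rik the counts were 122 and 54 tags.

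In the other direction, intron 3 of Eya4, a transcriptional coactivator with phosphatase activity, held 59 tags in EDL and 102 in Quad. Its percentiles were 1.05 (0 to 30.5) and 70.4 (55.0 to 81.3). Intron 1 of Ttll4, an enzyme that adds glutamate to tubulin, held 60 and 105 tags, and intron 2 of Nenf, a secreted factor, 66 and 112. These 3 regions and the one beside Gm20755 (59 and 90 tags) held no peak in the soleus or diaphragm lists, and all 4 were low in the EDL list. Counts near LOC102634389 were 60 and 100, and near Zfp970 60 and 94.

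Of promoters, the largest gaps towards EDL were at Mfap1a, a splicing factor (126 tags in EDL and 52 in Quad), the histone gene Hist2h4 (130 and 54), Egln3, an oxygen-sensing prolyl hydroxylase (116 and 53), and Tax1bp1, an autophagy receptor (118 and 54). Towards Quad they were at the kinase Tlk1 (59 and 98), Cul1, the scaffold of SCF ubiquitin ligases (68 and 131), the acyltransferase Lpgat1 (59 and 95) and the lipid transporter Abca2 (64 and 110). The 4 Quad promoters had GC contents of 75% to 80.5%, and the 4 EDL promoters 54% to 70.5%.

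The strongest peaks without any peak of the other muscle within 1 kb were near the top of their own lists. In EDL they lay 8532 bp upstream of Msl1, a chromatin complex scaffold (206 tags, percentile 92.6), in intron 1 of Brd2, a reader of acetylated histones (202 tags, 92.1), and 3917 bp upstream of Mef2d, a MEF2 factor of muscle differentiation (199 tags, 91.7). The nearest Quad peaks were 1894, 1560 and 4787 bp away. The Msl1 region was also open in soleus and diaphragm, at percentiles 95.8 and 89.0 of their whole lists, while the Brd2 and Mef2d regions were listed in EDL alone of the 4 muscles.

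In Quad the corresponding peaks were intron 2 of Nctc1, a muscle transcript of the Igf2 and H19 region (197 tags, percentile 95.5, nearest EDL peak 13977 bp away), a region near Mir101c (173 tags, 92.7) and the promoter of Plec, which encodes the cytolinker plectin (165 tags, 91.6, nearest EDL peak 7522 bp away). None of the 3 overlapped a soleus or diaphragm peak. The Mir101c peak lies near the start of chromosome 9 at a GC content of 34.4%, and peaks were not filtered here against lists of regions with artificially high signal.

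Peak numbers per gene were close in most cases. Of 12604 genes with a peak in either list, 7373 had equal numbers and 4405 differed by 1. EDL had at least 2 more at 422 genes (3.35%) and Quad at 404 (3.21%). The 10 genes with the largest excess in EDL follow. Cdh13, a cadherin that binds adiponectin, had 9 peaks in EDL and 3 in Quad, Dst, a cytoskeletal linker, 11 and 5, and Mlip, a muscle protein that binds lamin, 7 and 2. Adgrf5, an adhesion receptor, had 6 and 1, Zfp385b 8 and 3, Nav2, a neuron navigator, 11 and 6, Mir1904 12 and 7, and the noncoding gene 9430078K24Rik 22 and 17. Bmpr1b, a BMP receptor, and Sh3pxd2b, a podosome scaffold, had 4 and 0.

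In the whole lists, of which the Quad one is longer, the excess shrank or turned. Cdh13 then had 14 and 11 peaks, Mlip 9 and 7, and Dst 15 and 14, so these 3 kept more in EDL. Adgrf5, Zfp385b, Mir1904 and Bmpr1b were equal, and Nav2 (14 and 16), Sh3pxd2b (5 and 8) and 9430078K24Rik (27 and 32) had more in Quad. Of the 422 genes called for EDL, 44 were still at least 2 apart in the whole lists and 211 had more in Quad.

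The genes with the largest excess in Quad had many peaks that overlapped no peak of the whole EDL list. Over all called genes there were 705 such Quad peaks and 371 such EDL peaks, beside 3321 and 2104 over all genes, and the shorter EDL list favours this direction. Smyd2, a lysine methyltransferase found at sarcomeres, had 5 peaks in EDL and 11 in Quad, of which 6 overlapped no EDL peak, its promoter (percentile 67.8) among them. Dab2ip, a Ras GTPase activator, had 9 and 15, with 10 unmatched. Prrc2b had 3 and 8, and Lrrfip1 7 and 12, each with 6 unmatched. Adcy9, an adenylyl cyclase, had 2 and 6, and Tgm2, a transglutaminase, 2 and 6, each with 4 unmatched, which for Adcy9 all lay in intron 2 and for Tgm2 included the promoter. Smox, a spermine oxidase, had 4 and 9, Asap1, an Arf GTPase activator, 6 and 11, Klhl29 3 and 7, and Elmo1, a Rac activator, 3 and 8. All 10 had more peaks in Quad in the whole lists too, and 299 of the 404 genes called were still at least 2 apart there, a comparison that the longer Quad list favours.

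**Figure D3:**
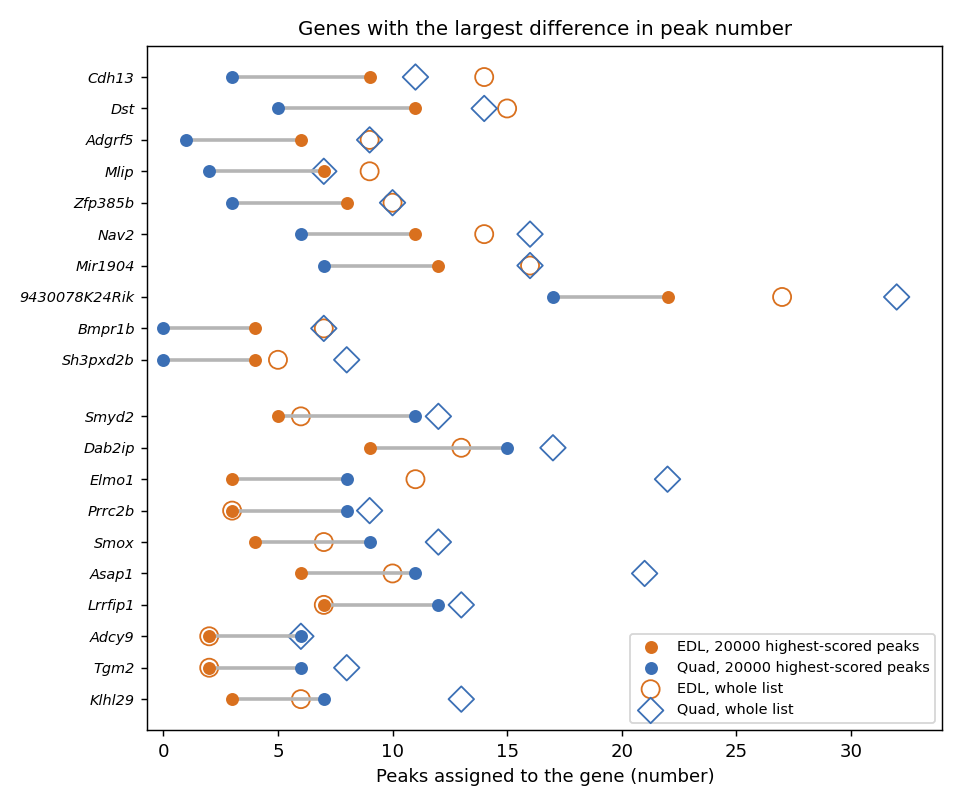
Peaks per gene in EDL and Quad are drawn for the 10 genes with the largest excess in each muscle, filled for the lists of 20000 and open for the whole lists. The 10 Quad genes keep more Quad peaks in the whole lists, whereas among the EDL genes only Cdh13, Dst and Mlip keep more EDL peaks.

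Genes of the fast contractile apparatus split in 2 ways. Of 16 members, all had a peak, with 33 peaks in EDL and 40 in Quad, and none was called for EDL against 2 for Quad, Pvalb and Casq1. At their 28 shared regions, though, 7 were called for EDL and 1 for Quad, with a median difference of 6.30 points against 0.28 over all pairs. The EDL share was 25% (12.7% to 43.4%). Over all pairs 12.2% were called for EDL and 10.1% for Quad, which is the background for every list below.

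The shared regions higher in EDL belonged to Myl1, Myh4 and Mylk2. Myl1, the fast essential myosin light chain, had promoter peaks of 143 tags in EDL and 80 in Quad (percentiles 79.9 and 51.1) and of 111 and 70 (64.2 and 37.6). In its intron 1 the peaks held 133 and 69 tags (76.3 and 35.9) and 104 and 59 (59.2 and 17.3). Its region 12475 bp upstream went the other way, with 72 and 85 tags (24.2 and 56.5). The promoter of Myh4, the fastest myosin heavy chain of limb muscle, held 133 and 81 tags (76.3 and 52.3 in the lists of 20000). Mylk2, the skeletal myosin light chain kinase, had 122 and 74 tags 6928 bp upstream and 136 and 81 tags 5772 bp upstream.

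The other shared regions differed by less than 20 points. Tnnc2 (fast troponin C) had a promoter peak of 156 tags in EDL and 107 in Quad, and an intron peak of Actn3, the alpha-actinin of fast fibres, had 120 and 88. The promoters of Mylpf (334 and 253 tags, percentiles 99.3 and 98.9), Acta1 (174 and 139), Tpm1 (175 and 139) and Casq1 (171 and 141) ranked nearly alike. Tnni2, Myoz1 and Mybpc2 had median differences of 6.44, 7.14 and -2.52 points.

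Peaks listed in Quad alone gave the Quad excess. Of the 40 Quad peaks at fast contractile genes, 12 overlapped no EDL peak, and of the 33 EDL peaks 3 overlapped no Quad peak, against 3321 and 2104 of 20000 over all genes; this count was chosen after its values were seen. The promoter of Tnnt3, fast troponin T, stood at percentile 85.6 in Quad, and the nearest EDL peak was 17861 bp away. A peak 2797 bp upstream of Atp2a1, the fast calcium pump, stood at 83.5 with the nearest EDL peak 9357 bp away. Pvalb, a calcium buffer of fast fibres, had 3 such peaks, at its promoter (68.4), in intron 1 (74.1) and in intron 4 (67.8), while its 1 EDL peak lay 5215 bp upstream (64.9). Casq1, the calcium store protein, had 1 upstream and 1 in intron 2, both at 74.6. The promoters of Mylk2 (74.6), Mybpc2 (69.1) and Actn3 (67.8), a Tpm1 promoter (63.96) and intron 9 of Myh1 (41.9) completed this group. Some of these peaks had an EDL peak close by. The nearest lay 341 bp from the Actn3 promoter peak, 698 bp from the upstream Casq1 peak and 2563 bp from that in Casq1 intron 2. The EDL counterparts beside that of Pvalb were a peak 2363 bp upstream of Tnnc2, at percentile 82.5, and a peak 9845 bp downstream of the start of Acta1, at 53.2.

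The EDL list therefore held no peak at all at Myh1, Tnnt3 or Atp2a1, which are defining genes of fast fibres. A missing peak says only that none was called there.

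Of the 16 genes listed as slow contractile 9 had a peak, with 20 in EDL and 15 in Quad, and 2 were called, both for EDL. The list also holds Actn2 and the type IIa myosin Myh2, which are not confined to slow fibres. Likewise the fast list holds Acta1, where the study showed a super-enhancer common to all muscles. Mybpc1, slow myosin-binding protein C, had 5 and 3 peaks, and its promoter held 146 tags in EDL and 69 in Quad (percentiles 80.7 and 35.9). A peak in its intron 1 held 91 and 57 tags (47.5 and 12.9). Actn2, the alpha-actinin of all fibres, had 2 and 0 peaks. The promoter of Atp2a2, the slow calcium pump, went the other way, with 70 and 98 tags (21.1 and 67.8). Tpm3 (201 and 157 tags at its promoter) and Ankrd2 ranked nearly alike, and Myoz2, Casq2, Myl2 and Tnni1 differed by 1 peak. In the whole lists Actn2 had 2 and 3 peaks and Mybpc1 5 and 7, so neither excess in number held there. Myh7, Myh7b and Tnnc1 were without a peak in either whole list.

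**Figure D4:**
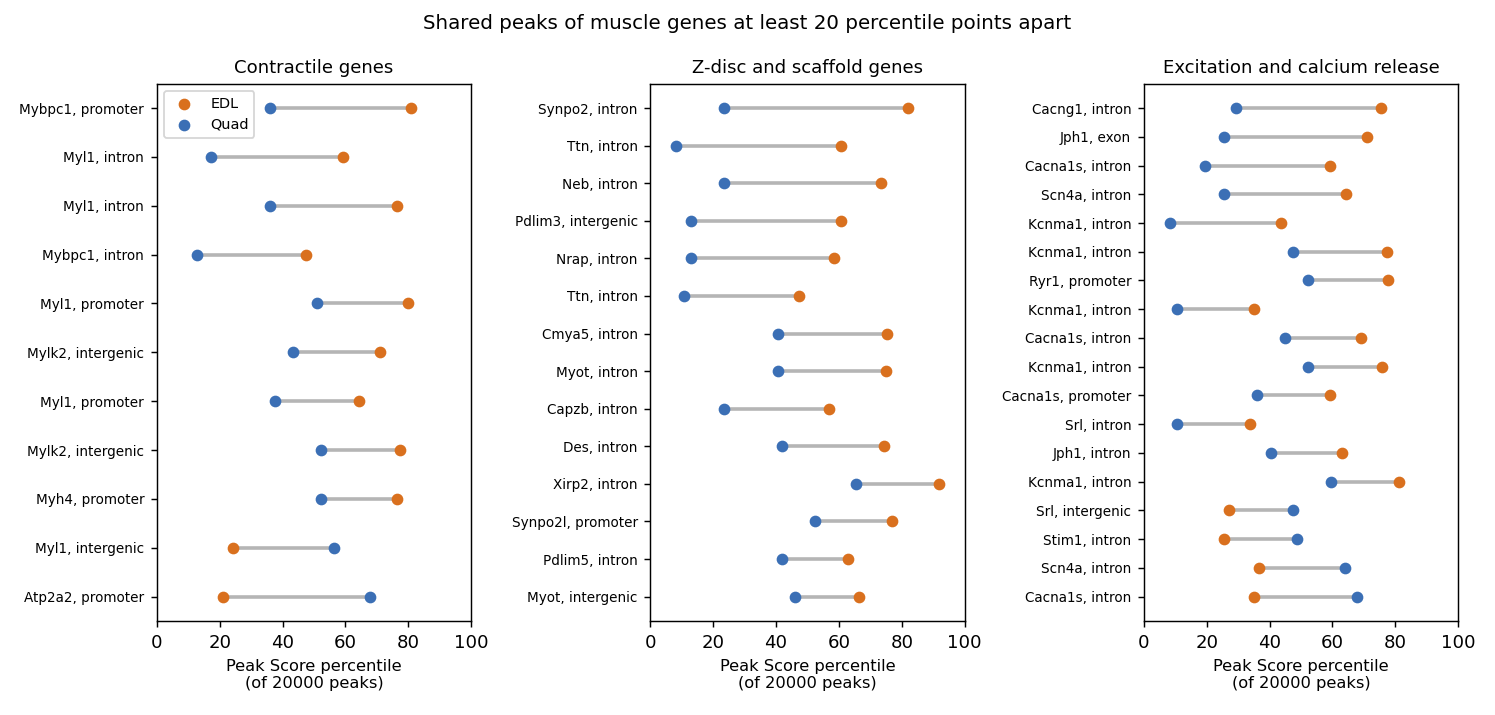
Peak Score percentiles in EDL and Quad are joined by a line for the shared regions called at contractile, Z-disc and excitation genes, except 1 that is not reported here. Most lines have EDL on the higher side, and the exceptions include Atp2a2, a region upstream of Myl1 and intron 9 of Cacna1s.

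Z-disc and titin-linked genes, which anchor the sarcomere, leaned to EDL at their shared regions. All 20 members had a peak, 78 in EDL and 72 in Quad, and 14 of 59 shared regions were called for EDL and 0 for Quad, with a median of 8.93 points. The EDL share was 23.7% (14.7% to 36.0%), where 12.2% of all pairs were called for EDL and 10.1% for Quad. Outside promoters 13 of 46 were called for EDL, or 28.3% (17.3% to 42.5%), an interval that included the 18% over all non-promoter pairs. In intron 1 of Synpo2, an actin-bundling protein, the peak held 149 tags in EDL and 62 in Quad (percentiles 81.8 and 23.5), and in intron 1 of Neb, nebulin, 127 and 62 (73.5 and 23.5). Intron 10 of Ttn, titin, held 106 and 55 (60.7 and 8.24), and Xirp2 intron 2 held 199 and 95 (91.7 and 65.5). Cmya5 (131 and 72), Des (129 and 73) and Pdlim3 (106 and 57) went the same way. By peak number, Synpo2 (4 and 2), Pdlim5 (7 and 4) and Nrap (6 and 4) were called for EDL, and Des (3 and 5) was among those called for Quad.

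Genes of excitation and calcium release leaned to EDL at their shared regions. Of these, 15 of 61 were called for EDL against 4 for Quad (median 8.29 points). Outside promoters 13 of 47 were called for EDL, or 27.7% (16.9% to 41.8%), an interval that included the 18% over all non-promoter pairs. By number they had 84 peaks in EDL and 72 in Quad, or 53.8% in EDL (46.0% to 61.5%), and 94 and 104 in the whole lists. All 20 had a peak, 5 were called for EDL and 1 for Quad, where 317 and 321 of the 3500 genes with at least 4 peaks in all were called. Cacna1s, the voltage sensor of the muscle calcium channel, had 7 and 5 peaks, and its promoter held 104 tags in EDL and 69 in Quad (59.2 and 35.9), although intron 9 held 80 and 98 (35.2 and 67.8). The promoter of Ryr1, the calcium release channel, held 137 and 81 (77.8 and 52.3), and intron 1 of Cacng1, a channel subunit, 131 and 65 (75.4 and 29.2). Kcnma1, a calcium-activated potassium channel, had 11 and 9 peaks and 5 shared regions called, all for EDL. Jph1 (10 and 6) and Trdn (3 and 1), which hold the membrane junction together, were also called for EDL. In the whole lists Cacna1s (7 and 7) and Trdn (4 and 4) were equal and Kcnma1 had 12 and 16, while Jph1 kept 11 and 10. Stac3, a partner of the channel, had 2 and 4 peaks. The sodium channel Scn4a had 1 region called each way, with 111 and 63 tags in intron 13 and 81 and 93 in intron 10.

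Neuromuscular junction genes did not lean. Of 18 members 12 had a peak, 23 in EDL and 25 in Quad, with 2 of 18 shared regions called each way. Utrn, the junctional relative of dystrophin, had 5 and 7 peaks.

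**Figure D5:**
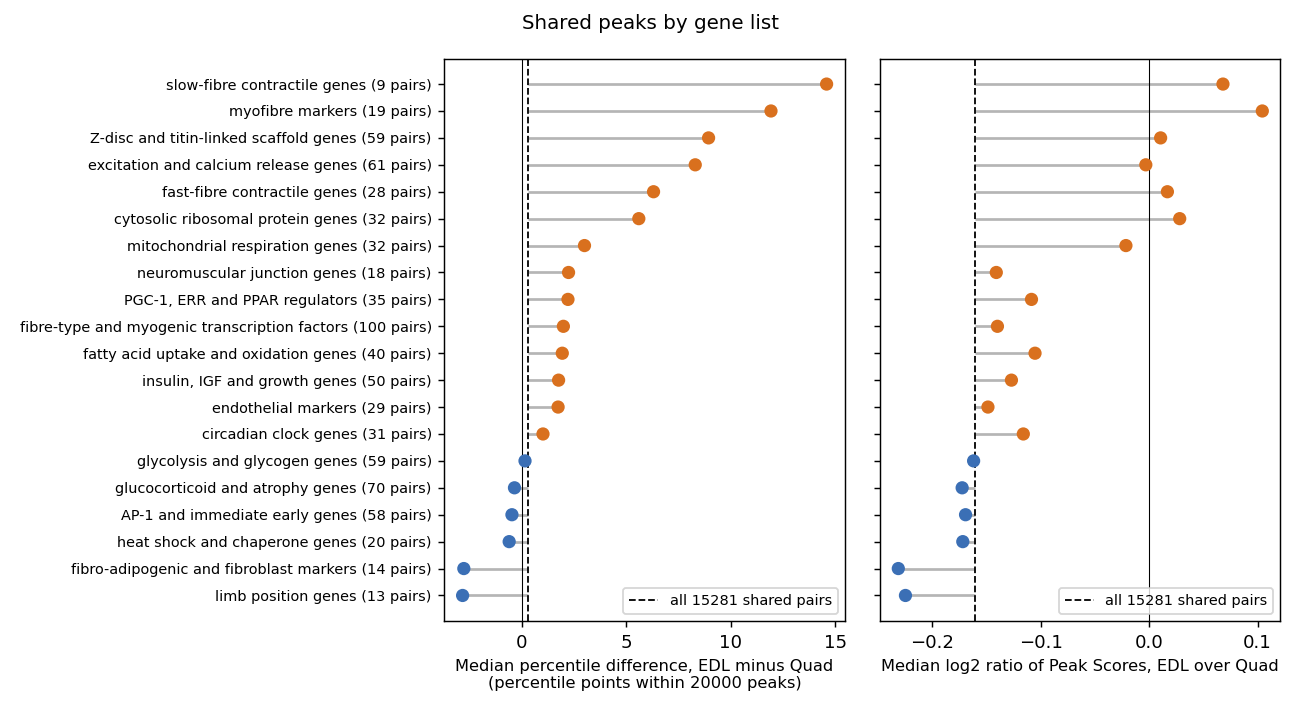
For each gene list with at least 9 shared regions, the median percentile difference (EDL minus Quad, points) and the median log2 ratio of Peak Scores are drawn beside the value over all shared pairs (dashed line). Contractile, Z-disc, excitation and ribosomal protein genes and the myofibre markers lie to the EDL side of the line in both panels. The neuromuscular, fatty acid, mitochondrial, oxidative regulator, transcription factor, clock, insulin and endothelial lists lie there too, so this side is not particular to muscle structure genes. Limb position, fibro-adipogenic, AP-1, glucocorticoid and heat shock lists lie to the Quad side in both, as does glycolysis, close to the line. Most myofibre markers are also members of other lists shown.

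Directions of numbers and ranks depend on the scale, since the Quad list is longer and all pairs shift together. Of the 31 members of gene and marker lists called for EDL by peak number, 6 had more in EDL in the whole lists, 8 were equal and 17 had more in Quad. Of the 24 called for Quad, 22 kept more in Quad and 2 were equal. Over all shared pairs the median was 0.28 points in the lists of 20000, -4.65 points with percentiles taken in the whole lists and -0.16 for the log2 ratio of Peak Scores. Relative to that shift the fast contractile (0.19 points and 0.02), slow contractile (0.64 and 0.07), Z-disc (-0.49 and 0.01) and excitation genes (-1.63 and -0.00) lay to the EDL side on both other scales, but their own values were near 0, so there a direction towards EDL holds only relative to all pairs. Of the 1869 pairs called for EDL, 1770 were above 0 in the whole lists and all had the higher score in EDL, and all 1540 called for Quad kept their direction. These lists also had less GC than all pairs. Median GC content was 53.25% at fast contractile, 55% at slow contractile, 53% at Z-disc and 55.5% at excitation pairs, against 58.5% over all pairs. In the lowest GC group of all pairs (median 49%), 22.8% were called for EDL and 9.18% for Quad. The part of GC content in the list differences was not tested.

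Metabolic genes were compared next. Of 25 glycolysis and glycogen genes 24 had a peak, 71 in EDL and 69 in Quad, and 11 of 59 shared regions were called for EDL and 3 for Quad, with a median of 0.15 points. Outside promoters, 10 of 37 were called for EDL and 1 for Quad (median 7.60), where the share over all such pairs was 18% for EDL and 10.8% for Quad. The EDL share of 27.0% had an interval of 15.4% to 43.0%, which included 18%. Intron 4 of Pfkm, muscle phosphofructokinase, held 164 tags in EDL and 85 in Quad (85.9 and 56.5). Ppp1r3a, which targets a phosphatase to glycogen, had 4 and 1 peaks, and Pgm2, a phosphoglucomutase, 5 and 7.

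Fatty acid genes (22 of 25 with a peak) had 50 peaks in EDL and 47 in Quad, with 3 of 40 shared regions called for EDL and 2 for Quad (median 1.93 points, and 7.42 at the 21 outside promoters). Lpl, lipoprotein lipase, had 9 and 7, Dgat2, which makes triglyceride, 3 and 1, and Acsl1, which activates fatty acids, 2 and 4. The promoter of Acadl, a dehydrogenase of fatty acid oxidation, held 91 tags in EDL and 136 in Quad (47.5 and 85.3). Genes of mitochondrial respiration (27 of 29) had 39 peaks in each muscle and 4 of 32 shared regions called, all for EDL. That share of 12.5% is near the 12.2% over all pairs. The median was 2.995 points, and 15.1 at the 9 outside promoters, against 2.4 over all non-promoter pairs. With percentiles taken in the whole lists those 9 had a median of -1.18, against -5.99 over all non-promoter pairs. Among the regions called were 2 upstream of Slc25a4, the ATP and ADP exchanger (118 and 64 tags, 98 and 53). Idh3a, an isocitrate dehydrogenase subunit, had 2 and 4 peaks.

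Among regulators of oxidative metabolism, 19 of 20 had a peak, 49 in EDL and 46 in Quad, and 7 of 35 shared regions were called for EDL and 3 for Quad. Ppargc1a, the coactivator PGC-1 alpha, had 4 and 2 peaks, and its intron 2 held 101 tags in EDL and 58 in Quad (56.7 and 15.2). In the whole lists Ppargc1a had 6 and 11 peaks, and the receptor Esrrg, with 4 and 2 here, had 5 and 8, so both turned. The region upstream of Prkaa2, a catalytic subunit of AMP-activated kinase, held 113 and 60 tags (65.5 and 19.5). On the Quad side, Nr4a2, a receptor induced by stimuli, had 1 and 3 peaks. A region upstream of Tfam, the mitochondrial transcription factor, held 62 and 81 tags (7.02 and 52.3).

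Fibre-type and myogenic transcription factors (33 of 36 with a peak) had 133 peaks in EDL and 125 in Quad, with 19 of 100 shared regions called for EDL and 7 for Quad. Outside promoters 16 of 78 were called for EDL, or 20.5%, which is near the share over all such pairs (18%). Maf (11 and 8), Tbx15 (6 and 4), Vgll2 (6 and 3) and Sox6 (7 and 4), a repressor of slow genes, had more in EDL, but in the whole lists Maf (14 and 21), Tbx15 (10 and 11), Vgll2 (9 and 11) and Sox6 (14 and 17) all had more in Quad. In intron 13 of Sox6 the peak held 148 tags in EDL and 72 in Quad (81.6 and 40.6), and in intron 2 of Hdac4, a repressor of MEF2, 112 and 53 (64.9 and 3.33). The promoters of Mef2c (114 and 65) and Myf6 (100 and 61), both activators of muscle genes, ranked higher in EDL, as did 4 regions upstream of Mef2a. Nfix, a factor of the fetal fibre switch, had 2 and 5 peaks and a promoter of 65 and 72 tags (12.8 and 40.6). Egr3, an early growth response factor needed for muscle spindles, had 1 and 4, and at Prox1, a factor of slow fibres, the shared peak held 71 and 82 tags.

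Limb position genes carry the Hox and related codes that persist in adult muscles. Of 48 members 16 had a peak, 21 in EDL and 23 in Quad, and 1 of 13 shared regions was called each way (median -2.84 points). Hoxc4 had 0 and 2 peaks, and Irx3, a homeobox factor, 4 and 7.

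Genes that respond to activity, hormones and stress had few calls. AP-1 and immediate early genes had 71 peaks in EDL and 74 in Quad, with Klf4 (8 and 4) called for EDL and Fosb (4 and 6) and Klf2 (3 and 5) for Quad. Clock genes had 42 and 44, with Arntl, the core activator, at 3 and 1, Rora at 13 and 11 and Tef at 4 and 6. Glucocorticoid and atrophy genes had 87 and 86 and 5 of 70 shared regions called each way. In that list the receptor Nr3c1 (11 and 9), its target Tsc22d3 (7 and 5) and Gadd45g (6 and 4) had more in EDL, and Cebpd (3 and 5) and the metallothionein Mt1 (1 and 3) more in Quad. In intron 2 of Zbtb16, a transcriptional repressor, the peak held 131 tags in EDL and 60 in Quad (75.4 and 19.5).

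Insulin, IGF and growth genes had 67 peaks in EDL and 73 in Quad, with Igfbp5 (3 and 1) and Irs2 (6 and 4) called for EDL and Tbc1d4, which controls glucose transporter traffic, for Quad (3 and 5). Of the chaperones, the small heat shock protein gene Hspb1 (3 and 5) and Dnajb5 (2 and 4) were called for Quad. Cytosolic ribosomal protein genes, measured mostly at promoters, had 38 and 37 peaks and 5 of 32 shared regions called for EDL and 0 for Quad (median 5.59 points). That EDL share of 15.6% had an interval of 6.86% to 31.8%, which included the 12.2% over all pairs. Over promoter pairs the share was 6.12%. The median of the ribosomal protein genes was also above that of all pairs in the whole lists (0.50 points) and by score (log2 ratio 0.03). The promoters of Rpl6 (87 and 52 tags) and Rps9 (126 and 73) were among the regions called, and Rps14 had 2 and 4 peaks.

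Markers of the cells that a whole muscle holds were counted in the same way. Myofibre markers had 24 peaks in EDL and 25 in Quad, with 6 of 19 shared regions called for EDL and 0 for Quad (median 11.9 points). Over all pairs 12.2% were called for EDL and 10.1% for Quad. The 6 calls lie at Des, Ttn, Myh4, Pygm and Ryr1, which are members of the lists above, so they repeat those regions and add no separate result. Endothelial markers had 42 and 37 peaks, with 6 of 29 called each way (median 1.73). That is 20.7% (9.85% to 38.4%), an interval that included both shares over all pairs. Of the endothelial markers, Tek (4 and 2), Flt1 (8 and 5) and Erg (8 and 5) had more peaks in EDL and Eng had 0 and 2. Fibro-adipogenic markers had 22 and 17 peaks, satellite cell markers 8 and 9 (none at Pax7, Myf5 or Calcr), and pericyte and smooth muscle markers 8 and 9 (none at Acta2, Tagln, Rgs5 or Pdgfrb). Of the 11 pericyte and smooth muscle markers only 3 had a peak, among them Myh11 (1 and 2) and Des (3 and 5). Des is also on the Z-disc and myofibre lists, so these counts are not specific to pericytes or smooth muscle. Tendon, macrophage, Schwann, adipocyte and erythroid markers had at most 6 peaks a list in either muscle, and Tnmd, Ptprc, Cd68, Adgre1, Sox10, Adipoq and Plin1 had none. The part of cell composition in the gene differences was not tested.

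Motifs were counted in 200-bp windows at shared non-promoter regions, 1413 called for EDL and 843 for Quad. The nuclear receptor monomer site was found in 8.42% of the EDL regions and 3.91% of the Quad regions, a difference of 4.51 points (95% Newcombe interval 2.47 to 6.43), against 5.87% of all shared non-promoter regions. The full MEF2 motif was found in 4.81% and 2.61% (difference 2.2, 0.56 to 3.73, 3.34% of all). The glucocorticoid receptor core site was found in 18.8% and 15.5% (3.29, 0.03 to 6.41, 16.3% of all). The E-box leaned to Quad, at 24.6% and 28.4% (-3.79, -7.61 to -0.05, 26.3% of all), as did the GC-rich KLF and SP site, at 9.34% and 21.0% (-11.7, -14.9 to -8.57, 17.8% of all), and the ETS site CCGGAA, at 4.46% and 6.41% (-1.95, -4.04 to -0.05, 6.34% of all). For the other 8 motifs the interval included 0, among them TEAD (12.99% of all), NFAT (18.9% of all), RUNX (11.8% of all) and AP-1 (9.50% of all).

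Base composition touched these shares too. Split at the median GC content of 54%, the nuclear receptor monomer site kept its excess in EDL at or below it (3.62 points, 0.36 to 6.43) and above it (4.46, 1.81 to 7.21). For MEF2 the differences were 1.96 (-0.87 to 4.31) and 1.24 (-0.62 to 3.14), both intervals including 0. The KLF and SP site differed by 0.0787 points at or below the median and by -16.2 above it. The glucocorticoid receptor core site differed by 2.87 (-2.10 to 7.48) and 0.29 (-3.91 to 4.42), and the E-box by -3.57 (-8.89 to 1.48) and -2.75 (-8.45 to 2.92), so all these intervals included 0. With calls made in the whole lists the difference of the nuclear receptor monomer site was 1.45 points. A match is a run of letters, not a bound site.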

How the data were processed

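ATAC-seq libraries of EDL and Quad were compared, 1 pooled library each. The authors aligned 42-bp pairs to mm10 with Bowtie2, called fixed-width peaks with HOMER in each library and annotated the nearest start site, with promoters from 1 kb upstream to 100 bp downstream. A Tn5 offset is not given in the sources used here. The deposited Peak Score is a signal, a tag count that HOMER scaled by library size. Whole steps of the scores below 10 (tolerance 0.0051) gave tags per peak and, at HOMER's default of 10 M (M, mega), 104 M tags in EDL and 78.1 M in Quad.

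The 20000 highest-scored peaks of each list, 208 and 188 bp wide, were ranked. Overlapping peaks (at least 1 bp) were merged and the best-scored peak of each list formed 1 pair per region. A percentile's counting interval is the exact Poisson 95% interval of its tags, and shares carry Wilson or Newcombe intervals. Unmatched peaks overlapped no peak of the whole other list. The pair step was tested on simulated data. Python 3.11.15, pandas 2.3.3, numpy 2.4.6, scipy 1.17.1, pysam 0.24.0 and matplotlib 3.10.9 were used.

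The members, the 17 gene lists, 10 marker lists and 14 motifs were chosen with earlier results of these data known. Genes were named if they had the 10 largest differences in peak number in each direction, the 6 non-promoter and 4 promoter pairs with the largest percentile difference, the 3 strongest peaks without a counterpart within 1 kb, or were called members of a list (of a list with fewer than 2 calls, its 4 members with the most peaks), with all fast and slow contractile genes. Further list members with a shared region called were chosen after their values were seen, as were the splits by GC content, the scales and the non-promoter values of lists. Other columns of the files were not used, and the soleus and diaphragm lists served only to look up named and unmatched regions. A few list members and a motif are not reported here, although counts over lists include them.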

Additional observations from a re-analysis of the deposited data

How the results depend on the processing

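No paired analysis was possible because each muscle has 1 library, and no replicate could be left out. With the 10000 highest peaks, the whole lists, peaks above a common score of 6.66, or a call at 3 peaks, genes called for EDL went from 422 to 179, 191, 96 and 105, and genes called for Quad from 404 to 120, 2723, 928 and 74. Limited to peaks within 50 kb of a start site, EDL genes numbered 270. Shared regions called for EDL (1869) became 945, 787 and 797 under the first 3 settings and 827 with a call at 30 points, and those for Quad (1540) became 894, 4600, 2701 and 673, and 843 without promoters. The share of EDL peaks without a counterpart (10.5%) became 5.54%, 20.4% and 8.02% under the first 3 settings, 24.2% when 50% reciprocal overlap was required, 5.45% when a peak within 500 bp counted as one and 13.5% without promoters. That of Quad (16.6%) became 7.78% with 10000 peaks, 40.5% with whole lists, 29.05% with reciprocal overlap, 10.7% with 500 bp and 21.0% without promoters. The promoter median of -0.55 points moved to -4.09 in whole lists and -4.53 above the common score. Whole lists (30136 peaks in EDL and 40337 in Quad) and the common score keep more Quad than EDL peaks. At rank 20000 the score was 5.58 in EDL and 6.66 in Quad. The balance between the muscles thus changed with the choice of list lengths, and the reason for the longer and higher-scored Quad list was not tested.

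Of 162 EDL shares of list peaks under alternative settings, 157 stayed within the counting interval of the main value, and 31 crossed 50%. The main interval of every list included 50%, so no list share was set apart from 50% to begin with. Of 140 motif differences 15 changed sign. In 13 of them the main interval included 0 (AP-1 at 1.67 and NFI at -2.46 in whole lists, TEAD at -1.07 and NFAT at -1.33 with 10000 peaks, for example). The other 2 were in the low-GC regions chosen after seeing the data, KLF and SP at 0.0787 points and ETS at 0.82 points. Median peaks of 94 and 79 tags limit the precision of any single region, and without replicates a difference cannot be set against the spread between animals.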
